A study of Mus musculus with 12 samples.

Results

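Double knockout mouse embryonic stem (ES) cells, labelled SUV420H1_H2 DKO (DKO), were compared with cells labelled SUV420H2 KO (KO), both in the undifferentiated state. The libraries were chosen by their labelled genotype and cell type, not by any measured value, and are 4 of the 12 in the series: 2 KO and 2 DKO libraries of polyadenylated RNA. The remaining 8 are 2 WT ES libraries, used here for the spread between libraries and for reference levels, and 6 libraries of differentiated cells. All ES cells were kept without feeders on gelatin for several passages, in medium with 1.5 µM of the GSK3 inhibitor that the labels spell CHIR9901. Such an inhibitor holds beta-catenin in its active state, and the agent was present in the KO, DKO and WT cells alike.

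The labels give neither the strain, the kind of mutation, the number of clones nor whether the paired libraries of 1 genotype were grown as separate cultures. The p-values below therefore measure only the spread between these libraries, which may be technical, and a difference between the mutant lines cannot be told apart from a difference between the clones they were grown from. Since both mutant lines are labelled as SUV420H2 mutants, the comparison asks what separates cells also labelled as SUV420H1 mutants from cells that are not.

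As background, a monomethyl group on lysine 20 of histone H4 is set by another enzyme, SET8, and SUV420H1 and SUV420H2 extend it to the dimethyl and trimethyl forms. The dimethyl form is spread widely over chromatin and is read by the DNA repair protein 53BP1 and the replication origin protein ORC1. The trimethyl form, made mostly by SUV420H2, lies at pericentric and telomeric heterochromatin and at silent repeats.

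Between 23225915 and 25813359 reads were counted in genes in each KO and DKO ES library. All 10 ES cell markers examined were at 1 RPKM (reads scaled to transcript length and library size) or more in both mutant lines. Their summed level was 2856 and 2996 RPKM in the KO libraries and 2201 and 1856 RPKM in the DKO libraries. The summed level of 12 feeder fibroblast markers was 12.0 and 14.1 RPKM in KO and 8.98 and 8.25 RPKM in DKO. The 2 DKO libraries differed from each other more than the 2 KO libraries did, with a median absolute log2 difference per gene of 0.225 against 0.152.

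The targeted genes were examined as a check of the labels. Suv420h2, on chromosome 7, was at 4.41 and 3.95 RPKM in KO and at 5.59 and 3.37 RPKM in DKO, against 28.6 and 25.8 RPKM in WT. Its level was low in both mutant lines, with a log2 fold change of 0.05 for DKO against KO (SE 0.19, edgeR adjusted p = 0.81). Without DKO replicate 2 the log2 fold change was 0.34 and passed the test (edgeR adjusted p = 0.035). Suv420h1, on chromosome 19, did not follow the DKO label over its longest model of 6131 bases: it was at 3.41 and 3.61 RPKM in KO and higher, at 5.30 and 5.77 RPKM, in DKO, by 0.63 on the log2 scale (SE 0.13, edgeR adjusted p = 9.6e-04). Its shorter models went the other way, and that of 3290 bases fell most, with 694 and 612 reads in KO and 367 and 283 reads in DKO. The model of 3016 bases had 411 and 390 reads in KO and 333 and 258 reads in DKO. That of 3318 bases had 416 and 390 reads in KO and 336 and 259 reads in DKO. These values cannot show whether the protein was absent, since the deleted part of the gene is not given in the labels, and DKO below means the libraries labelled so.

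A property of the whole transcriptome moved with the comparison. The tested genes were ordered by transcript length and divided into 5 bins. In the bin of shortest transcripts (30 to 1483 bases) the median log2 fold change was -0.44, and in that of the longest (4513 to 23495 bases) it was 0.37. In the shortest bin the median deviation from the gene mean was -0.15 and -0.33 in the DKO libraries and 0.10 and 0.14 in the KO libraries, on the log2(RPKM + 1) scale. The groups did not overlap, and DKO replicate 2 was the farther of the DKO pair. The part of transcript length in the results below was not tested as a cause. A fit with an offset for length, which called 67.0% of all genes, is given beside several gene groups that it moves.

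**Figure D1:**
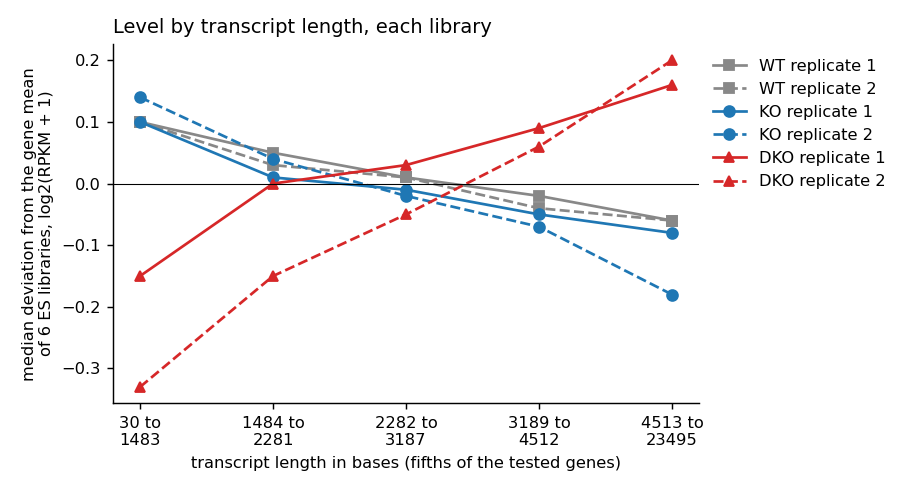
Median deviation of the tested genes from their mean over the 6 ES libraries (log2(RPKM + 1), y axis) in 5 bins of transcript length (x axis, bases), 1 line per library. The DKO libraries ran from -0.15 and -0.33 for the shortest transcripts to 0.16 and 0.20 for the longest, and the KO libraries from 0.10 and 0.14 to -0.08 and -0.18.

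The mutant lines differed over most of the transcriptome. Of 12044 genes tested, 67.3% passed an edgeR adjusted p under 0.05 (hereafter called), 33.3% higher and 34.1% lower in DKO. At least 2-fold differences made up 30.7% of the genes tested, 14.5% higher and 16.2% lower. A log2 fold change of 4 or more in either direction was reached by 244 called genes, and one of 5 or more by 136. Counts of members called are read against these shares, with log2 fold changes given as DKO minus KO. Some list members passed the filter (1 RPKM in 2 libraries) only through 1 mutant line, such as Wls, Fst and Fgfr2. Passing in that way favoured a difference, so such members lend a count no support. The median over all genes tested was -0.02, and no other scaling moved it by more than 0.066.

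The largest rise was that of Ripply3, a corepressor of T-box factors: it was at 0.672 and 0.865 RPKM in KO, 174 and 156 RPKM in DKO, and 2.70 and 2.27 RPKM in WT. The DKO level was 209-fold the KO level, a log2 difference of 7.71 (SE 0.18, edgeR adjusted p = 9.7e-11). Nkx6-3, a homeodomain factor of the gut epithelium, rose 141-fold, from 0.201 and 0.256 RPKM in KO to 36.6 and 29.6 RPKM in DKO. Both genes were far above WT in DKO and below WT in KO, so the 2 mutant lines lay on opposite sides of WT.

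The other large rises covered several functions. Bhlhe41, a repressor of the circadian clock, was at 0.527 and 0.791 RPKM in KO and 58.3 and 30.2 RPKM in DKO. Hrk, which encodes a pro-apoptotic BCL2 family protein of the BH3-only kind, was at 1.35 and 1.08 RPKM in KO and 39.4 and 41.8 RPKM in DKO. Sox1, a transcription factor of neural progenitors, was at 2.40 and 2.65 RPKM in KO and 64.4 and 54.4 RPKM in DKO. These rose 64.9-fold, 32.7-fold and 23-fold. Genes were taken as largest differences only if their KO and DKO libraries did not overlap, which held for 9719 of the 12044 genes tested. Dusp4, a phosphatase that inactivates ERK, went from 6.07 and 6.32 RPKM to 101 and 89.6 RPKM. Mbnl2, a splicing regulator, went from 1.92 and 1.26 RPKM to 29.0 and 32.5 RPKM. Cpe, a carboxypeptidase that processes peptide hormones, went from 2.16 and 2.0 RPKM to 37.0 and 35.4 RPKM. Grik3, a kainate receptor subunit, rose 17.7-fold, from 2.02 and 1.69 RPKM to 33.4 and 33.8 RPKM.

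Among the 10 largest falls, 3 genes lie on the X chromosome, whose genes as a group were lower in DKO (below). Klhl13, a substrate adaptor of a cullin ubiquitin ligase, was at 231 and 198 RPKM in KO and 2.55 and 2.95 RPKM in DKO, 79.3-fold lower, with 5.18 and 5.12 RPKM in WT. Pnma5 was at 59.4 and 52.4 RPKM in KO and 0.358 and 0.171 RPKM in DKO. Fmr1nb, a cancer and testis gene, was at 25.9 and 26.3 RPKM in KO and 0 and 0.133 RPKM in DKO. The WT level of Klhl13 and Pnma5 was nearer to DKO than to KO, while Fmr1nb, at 6.31 and 7.02 RPKM in WT, lay between the lines. Calcoco2, an autophagy receptor on chromosome 11, was at 133 and 136 RPKM in KO, 3.51 and 2.79 RPKM in DKO and 7.01 and 7.86 RPKM in WT. Mycn, a proto-oncogene of the Myc family on chromosome 12, had KO close to WT and DKO far below both. It was at 105 and 103 RPKM in WT, 92.0 and 94.8 RPKM in KO and 4.55 and 3.48 RPKM in DKO, 23.9-fold lower than in KO (a log2 difference of -4.58, SE 0.14, edgeR adjusted p = 2.3e-10).

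**Figure D2:**
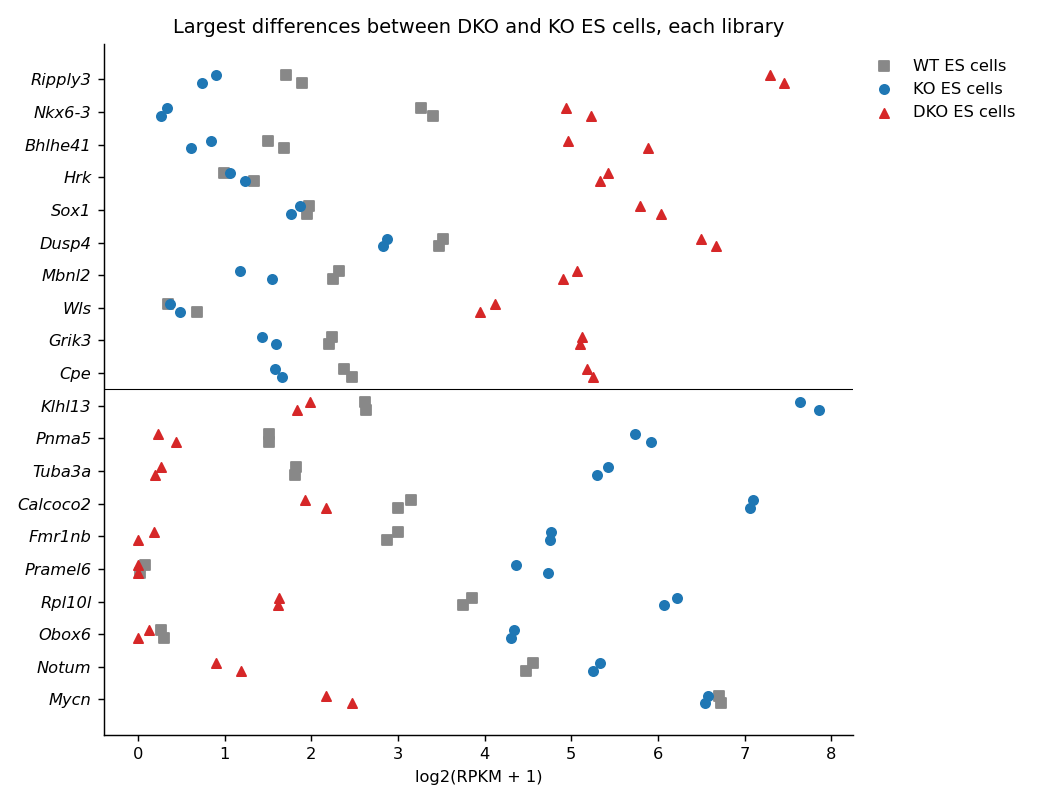
Level of the 10 largest rises (above the line) and 10 largest falls (below it) in each ES library, as log2(RPKM + 1); squares are WT, circles KO and triangles DKO. Genes were chosen so that KO and DKO points do not overlap; WT lies near KO for Mycn but near DKO for Klhl13.

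Pluripotency factors moved in both directions. Of 34 pluripotency factors tested, 12 were higher and 15 lower in DKO, with a median log2 fold change of -0.17. Tbx3 and Tfcp2l1, transcription factors of the naive state, were among the risers. Tbx3 was at 41.1 and 44.9 RPKM in KO and 301 and 238 RPKM in DKO, a 6.10-fold rise. Tfcp2l1 was at 39.8 and 35.0 RPKM in KO and 176 and 190 RPKM in DKO, a 4.80-fold rise. Klf5 rose 3.31-fold, Klf4 2.87-fold and Esrrb, a nuclear receptor that binds many pluripotency genes, 2.13-fold.

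Other naive-state genes fell in the same libraries. Nanog, the homeobox factor, was at 428 and 406 RPKM in KO and 81.6 and 67.5 RPKM in DKO. Dppa5a was at 508 and 451 RPKM in KO and 114 and 97.3 RPKM in DKO, a 4.65-fold fall. Prdm14, a repressor needed for the germline and for naive culture, was at 12.3 and 12.6 RPKM in KO and 2.39 and 2.46 RPKM in DKO. Dppa3, an egg and early-embryo factor that protects DNA methylation marks, was at 9.15 and 9.73 RPKM in KO and 0 and 0.101 RPKM in DKO. For each of these 4 genes WT lay between the lines. The core factors moved little: Pou5f1 was 1.33-fold lower, at 624 and 762 RPKM in KO and 570 and 497 RPKM in DKO, and Sox2 was at 336 and 383 RPKM in KO and 458 and 366 RPKM in DKO (edgeR adjusted p = 0.25). Zfp42, at 753 and 707 RPKM in WT, was at 66.9 and 76.2 RPKM in KO and 90.7 and 85.1 RPKM in DKO (edgeR adjusted p = 0.052).

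Genes of the primed, post-implantation epiblast did not rise as a group, with 7 of 19 tested higher and 10 lower. Zic2, a zinc finger factor, was at 30.7 and 35.5 RPKM in KO and 1.74 and 1.68 RPKM in DKO, and its neighbour Zic5 was at 9.42 and 10.9 RPKM in KO and 1.01 and 0.968 RPKM in DKO. Both are on chromosome 14, where most genes were higher in DKO. Dnmt3b, a de novo DNA methyltransferase, was at 32.6 and 31.7 RPKM in KO and 3.15 and 3.60 RPKM in DKO, a 9.71-fold fall. Otx2, the factor that opens the exit from the naive state, went the other way, from 0.782 and 0.767 RPKM in KO to 9.26 and 8.83 RPKM in DKO. The transcripts that separate the lines therefore held members of both pluripotent states in both directions.

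Early-embryo and germline transcripts were mostly lower in DKO where they could be tested. Of 27 two-cell-like genes in the files only 9 passed the filter on low values, and these were lower; of 39 germline and meiotic genes 25 passed, with 18 lower and 4 higher. Members such as Gm4340, at 10.3 and 9.78 RPKM in KO, 0.138 and 0.184 RPKM in WT and 0.191 and 0.0655 RPKM in DKO, passed only through KO and so had to differ, and the counts support no direction. These lists were chosen with that difference known, so their direction is a description. The level lay mostly in KO: Tdrd12, a component of the piRNA pathway that silences transposons, was at 15.3 and 16.0 RPKM in KO, 7.37 and 6.80 RPKM in WT and 0.0148 and 0 RPKM in DKO. Smc1b, the meiotic cohesin subunit, was at 2.52 and 2.46 RPKM in KO and 0.0774 and 0.0867 RPKM in DKO. Dazl, an RNA-binding protein of germ cells, was at 3.03 and 3.22 RPKM in KO and 0.106 and 0.119 RPKM in DKO. Dmrt1, a factor of the gonad, was an exception, at 15.3 and 17.4 RPKM in KO and 65.9 and 63.3 RPKM in DKO, 3.86-fold higher. Tex15 and Ddx4, also germ cell genes, rose 3.44-fold and 2.48-fold. Reads of near-identical gene copies in the Zscan4, Pramel and Tuba3 families could be divided among members in the counting, so values of single members are uncertain.

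**Figure D3:**
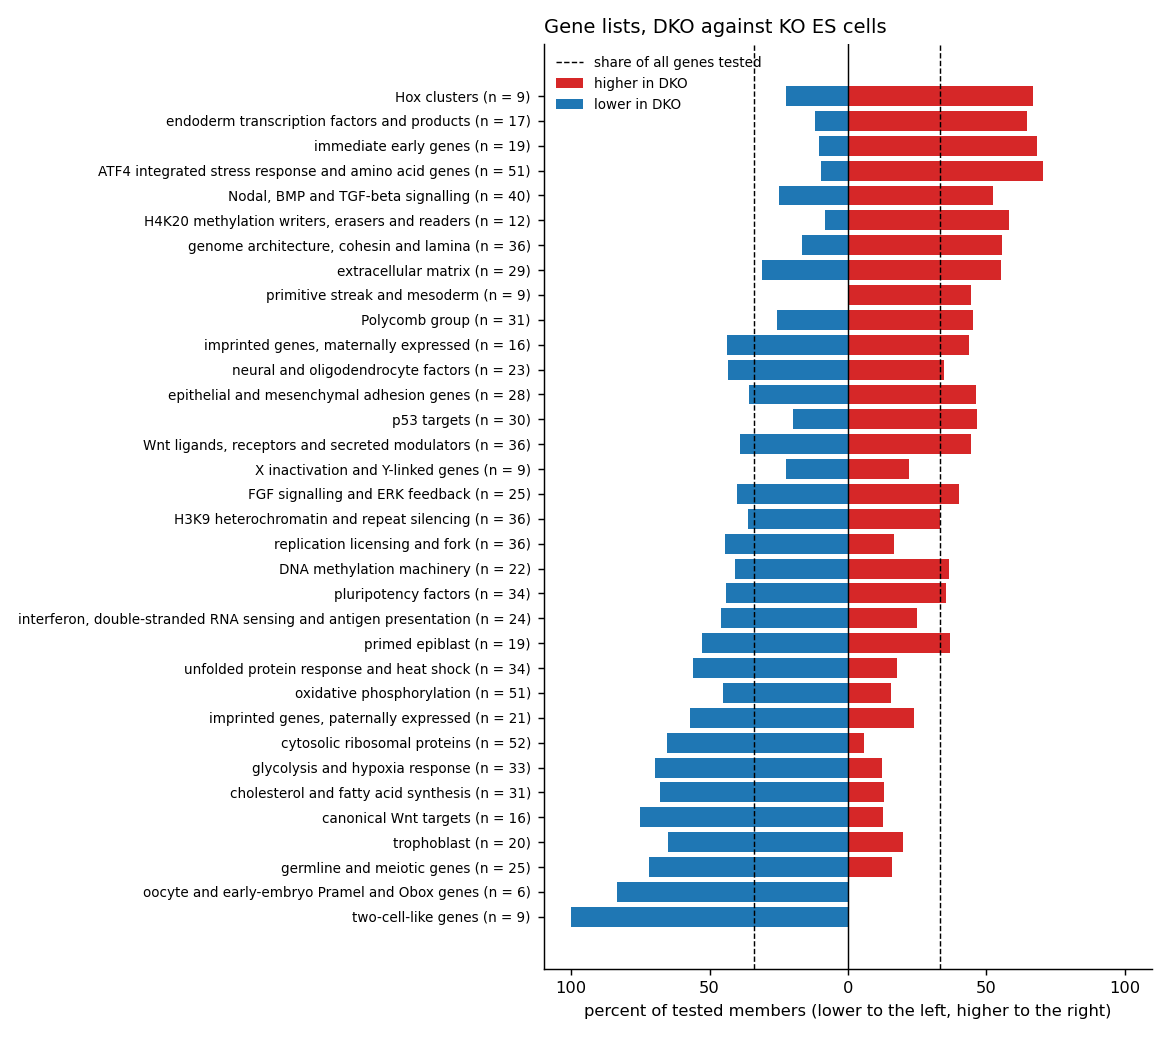
Percent of the tested members of each gene list called higher (right, red) or lower (left, blue) in DKO than in KO, ordered by the list's median log2 fold change, with the number tested in brackets. Dashed lines mark the shares of all genes tested, 33.3% higher and 34.1% lower. Members of some lists passed the filter only through the line where they were high, so the shares of those lists support no direction.

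Transcripts of Wnt ligand secretion, receptors and targets differed between the lines, in both directions. Secretion and pathway activity were not measured. With a GSK3 inhibitor in the medium the pathway is driven below the receptor, and its direct targets are read out by TCF and LEF factors. Of 16 canonical targets tested, 12 were lower and 2 higher (median -1.03). Lef1, itself a target and a mediator, was at 3.54 and 5.35 RPKM in KO and 0.137 and 0.0503 RPKM in DKO. Tcf7, a second such factor, was at 19.7 and 19.3 RPKM in KO and 7.93 and 7.43 RPKM in DKO, and Sp5 fell 4.17-fold. Ccnd1, cyclin D1, was at 36.7 and 38.2 RPKM in KO and 17.4 and 18.2 RPKM in DKO. Myc was at 13.3 and 15.8 RPKM in KO and 5.66 and 4.48 RPKM in DKO, a 2.95-fold fall that went with the fall of Mycn.

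The targets were not uniform. Cdx1, a caudal homeobox factor, was at 4.08 and 5.83 RPKM in KO and 78.5 and 44.3 RPKM in DKO, 12.0-fold higher. Axin2, the negative feedback gene widely used as a readout of the pathway, was at 3.61 and 3.66 RPKM in KO and 3.90 and 4.07 RPKM in DKO, and was not called (log2 fold change 0.10, edgeR adjusted p = 0.51). Tnfrsf19 was the other riser, at 1.48 and 1.13 RPKM in KO and 1.82 and 1.89 RPKM in DKO, and without KO replicate 2 or without DKO replicate 2 only 1 target was called higher.

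Upstream, Wls, the carrier that takes Wnt proteins to the cell surface, was at 0.402 and 0.287 RPKM in KO and 14.4 and 16.4 RPKM in DKO, a 43.6-fold rise. Porcn, the X-linked acyltransferase that lipidates Wnt proteins, fell 4.36-fold, from 16.1 and 14.2 RPKM to 4.14 and 3.0 RPKM. Wnt11, a ligand of the non-canonical branch, was at 0.223 and 0.214 RPKM in KO and 8.78 and 5.90 RPKM in DKO. The receptor Fzd7 was at 17.2 and 18.0 RPKM in KO and 132 and 118 RPKM in DKO, a 6.95-fold rise. Fzd5, Fzd3, Fzd4, Fzd1 and Fzd6 also rose, by 2.70-fold, 3.23-fold, 4.27-fold, 2.55-fold and 2.51-fold, while Fzd9 fell 4.38-fold, Fzd8 1.59-fold, Fzd10 1.51-fold and Fzd2 1.33-fold. Fzd7 and Fzd5 lie on chromosome 1 and Fzd3 on chromosome 14, where genes were higher in general. Ctnnb1, beta-catenin itself, was at 131 and 116 RPKM in KO and 267 and 255 RPKM in DKO, 2.07-fold higher. Among the TCF factors, Tcf7l2 rose 5.80-fold and Tcf7l1, the repressive member in ES cells, fell 2.35-fold. In the list of 36 ligands, receptors and modulators as a whole, 16 were higher and 14 lower.

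Genes of the TGF-beta superfamily moved in both directions, with 21 of 40 tested higher and 10 lower. Among BMP ligands and their Id and Smad targets 7 of 11 tested genes were higher and 3 lower (median 0.84), whereas among Nodal ligands, coreceptors and targets none of 8 was higher and 5 were lower (median -1.17). The 2 groups were formed by role after the values were seen. Bmp4 was at 6.67 and 7.22 RPKM in KO and 66.4 and 54.4 RPKM in DKO, against 49.5 and 53.4 RPKM in WT. Bmp7 was at 2.89 and 2.93 RPKM in KO and 16.1 and 10.7 RPKM in DKO, against 2.67 and 2.76 RPKM in WT. Id1, an inhibitor of bHLH factors induced by BMP, was at 18.5 and 20.7 RPKM in KO and 129 and 108 RPKM in DKO. Id2 was at 4.31 and 5.91 RPKM in KO and 54.0 and 47.4 RPKM in DKO, a 9.69-fold rise, and Id3 rose 2.57-fold. The BMP effectors Smad1 and Smad5 and the receptor Bmpr1a rose 3.32-fold, 2.52-fold and 2.32-fold. The ligands Bmp8a and Bmp8b fell 2.68-fold and 1.87-fold. The inhibitor Smad6 also fell, and was at 5.96 and 7.42 RPKM in KO and 2.38 and 2.16 RPKM in DKO.

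On the Nodal and activin side, the receptors Acvr1b and Acvr2a rose 2.57-fold and 1.83-fold, and the activin subunit gene Inhbb rose 2.15-fold. Lefty1 and Lefty2, secreted antagonists induced by Nodal, fell 3.68-fold and 3.33-fold. Lefty2 was at 176 and 191 RPKM in KO and 57.8 and 55.0 RPKM in DKO. Both are on chromosome 1, so their direction was opposite to that of most genes there. Gdf3, a ligand that works with Nodal, fell 3.89-fold. Nodal itself was at 34.8 and 41.9 RPKM in KO and 50 and 35.0 RPKM in DKO, with overlapping libraries (edgeR adjusted p = 0.54).

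Genes of the FGF and ERK cascade were as often higher (10 of 25) as lower (10 of 25). The feedback phosphatase Dusp6 was at 7.08 and 7.98 RPKM in KO and 69.8 and 63.3 RPKM in DKO, 8.64-fold higher. The feedback inhibitor Spry2 was at 39.9 and 47.3 RPKM in KO and 258 and 213 RPKM in DKO, 5.26-fold higher, and Spry4 rose 2.75-fold. Against these, the ligand Fgf4 was at 97.2 and 93.6 RPKM in KO and 43.5 and 41.6 RPKM in DKO, and Fgf17 fell 8.45-fold. Spry1 and the ERK-responsive factor Etv5 also fell, 3.35-fold and 2.48-fold. Dusp5 and Spred1, also inhibitors of the cascade, rose 1.75-fold and 2.69-fold, and Spred2 fell 1.41-fold. Dusp6, Spry2 and Spry4 were below WT in both KO libraries, whereas Dusp5, at 6.98 and 7.56 RPKM in KO, was above its WT level of 5.38 and 5.73 RPKM. WT was at 27.0 and 27.3 RPKM for Dusp6, 123 and 125 RPKM for Spry2 and 83.2 and 83.3 RPKM for Spry4.

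**Figure D4:**
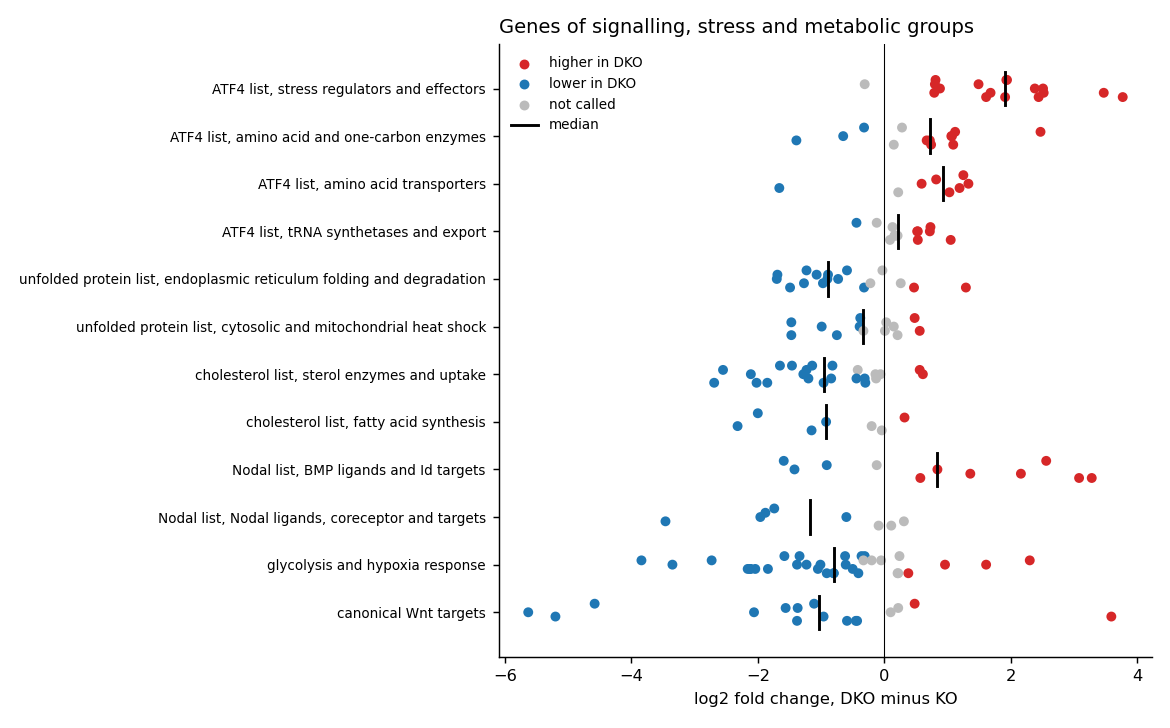
Log2 fold change (DKO minus KO, x axis) of each tested gene of 12 groups, 1 point per gene, red where called higher, blue where called lower and grey where not called; black bars are medians. The stress regulators have their median at 1.91, and the sterol enzymes theirs at -0.96. Subgroups of lists were formed after the values were seen.

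Genes of the integrated stress response were mostly higher in DKO. In this response the phosphorylation of the initiation factor eIF2 favours translation of ATF4, which with C/EBP partners switches on genes of amino acid supply. Of 51 genes tested, 36 were higher and 5 lower in DKO, a median log2 fold change of 0.80. Among 17 regulators and effectors 16 were higher and none lower (median 1.91). This subgroup, like the others of the list below, was formed by role after the values were seen, so its count is a description. Atf3, a repressor of the same family, was at 3.75 and 3.20 RPKM in KO and 50.8 and 46.3 RPKM in DKO, 13.6-fold higher. Ddit4, an inhibitor of mTORC1, was at 71.5 and 94.7 RPKM in KO and 499 and 387 RPKM in DKO, 5.20-fold higher. Atf5 was at 13.5 and 12.6 RPKM in KO and 86.2 and 65.8 RPKM in DKO. Chac1, which breaks down glutathione, was at 19.4 and 19.3 RPKM in KO and 123 and 92.4 RPKM in DKO. Trib3, a pseudokinase that dampens ATF4, rose 3.85-fold, and Ddit3, the pro-apoptotic factor CHOP, rose 3.20-fold. Atf4 itself, which is controlled mainly at translation, was at 151 and 131 RPKM in KO and 270 and 227 RPKM in DKO. KO was close to WT for Atf3, Chac1, Trib3 and Ddit3, where WT was at 2.65 and 2.35, 20.1 and 16.9, 21.1 and 18.6, and 16.1 and 15.0 RPKM. It was above WT for Ddit4 and Atf5, where WT was at 32.9 and 37.4, and 6.53 and 7.97 RPKM.

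The other members were divided by role. Among amino acid and one-carbon enzymes 8 of 13 were higher and 3 lower (median 0.72), among amino acid transporters 6 of 8 were higher and 1 lower (median 0.93), and among tRNA synthetases with the tRNA exporter 6 of 13 were higher and 1 lower (median 0.21). Cth, which makes cysteine from cystathionine, was at 6.58 and 6.49 RPKM in KO and 36.3 and 37.8 RPKM in DKO, 5.54-fold higher. Slc7a5, the leucine transporter, was at 133 and 130 RPKM in KO and 379 and 300 RPKM in DKO, 2.52-fold higher. The asparagine synthetase gene Asns was at 79.1 and 80.1 RPKM in KO and 131 and 127 RPKM in DKO, only 1.59-fold higher. Pycr1, the last enzyme of proline synthesis, went against the group on chromosome 11, at 4.99 and 4.89 RPKM in KO and 1.78 and 2.07 RPKM in DKO. Slc7a3, an arginine transporter on the X chromosome, fell 3.17-fold. A fit with an offset for transcript length gave 36 higher and 5 lower for the whole list.

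Because ATF4 and its C/EBP partners bind a composite element, its consensus TGATGNAAN was searched on both strands in the 250 bases upstream of each start in the RefSeq promoter table (build GRCm38.p6). It occurred at 7 of 30 list members called higher that have a window there (23.3%), at 4 of 11 other members (36.4%) and at 3.89% of all 27025 genes. The stretches below show the match in 5 of the risers and, for contrast, in Pycr1, which fell, and in Aars, which was not called; each is written 5′ to 3′ on the gene's strand with the matched 9 bases in capitals.
Atf3 (chr1:191183416-191183464, minus strand): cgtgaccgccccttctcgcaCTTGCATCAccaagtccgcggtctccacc
Vldlr (chr19:27216799-27216847, plus strand): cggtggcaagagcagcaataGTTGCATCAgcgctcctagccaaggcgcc
Nupr1 (chr7:126625553-126625601, minus strand): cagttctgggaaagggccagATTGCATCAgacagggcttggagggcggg
Chac1 (chr2:119351028-119351076, plus strand): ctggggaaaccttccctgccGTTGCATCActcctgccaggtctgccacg
Herpud1 (chr8:94386296-94386344, plus strand): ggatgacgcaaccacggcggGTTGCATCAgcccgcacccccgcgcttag
Pycr1 (chr11:120643823-120643871, minus strand): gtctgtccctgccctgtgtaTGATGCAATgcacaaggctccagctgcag
Aars (chr8:111033709-111033757, plus strand): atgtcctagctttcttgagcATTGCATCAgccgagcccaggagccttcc

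In the 5 risers shown, and in Aars, the match read from the opposite strand. It ended 103 bases before the start in Atf3 and in Nupr1 and 105 bases before it in Herpud1 and in Aars. A match is a string in the window and not a measured site, and the element stood at members that rose, fell or were not called alike. Vldlr, a lipoprotein receptor, had risen from 0.294 and 0.191 RPKM in KO to 2.62 and 2.87 RPKM in DKO, and Nupr1, a stress-induced chromatin protein, from 24.9 and 23 RPKM to 154 and 129 RPKM. Herpud1, which acts in the disposal of misfolded proteins, had risen 3.77-fold, from 11.9 and 9.82 RPKM to 45.1 and 38.8 RPKM. Aars, the alanyl-tRNA synthetase, was at 93.1 and 100 RPKM in KO and 115 and 96.1 RPKM in DKO (edgeR adjusted p = 0.48).

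Genes of protein folding in the endoplasmic reticulum, which form another arm of the stress responses, went the opposite way. Of 17 folding and degradation genes, a subgroup formed after the values were seen, 12 were lower and 2 higher (median -0.89). Hspa5, the main chaperone of that compartment, was at 131 and 136 RPKM in KO and 61.6 and 68.3 RPKM in DKO, 2.11-fold lower. The protein disulphide isomerases Pdia4 and Pdia6 fell 3.25-fold and 3.24-fold. Xbp1, the transcription factor of that arm, was at 37.2 and 38.1 RPKM in KO and 10 and 10.3 RPKM in DKO, 3.79-fold lower. The cytosolic and mitochondrial heat shock genes had 6 of 13 lower and 2 higher: Hspa8, the constitutive HSP70, fell 2.78-fold and Hspd1, the mitochondrial chaperonin, 2.76-fold. With the length offset the folding genes had 11 lower and 1 higher.

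Immediate early genes were higher in 13 of 19 cases and lower in 2. Maff rose from 5.12 and 5.33 RPKM in KO to 37.0 and 29.0 RPKM in DKO, Klf10 from 27.4 and 26.3 RPKM to 88.0 and 77.5 RPKM, and Jun from 8.83 and 9.64 RPKM to 23.8 and 20.9 RPKM. Egr1 was at 11.7 and 10.9 RPKM in KO and 11.4 and 6.94 RPKM in DKO (edgeR adjusted p = 0.11). Targets of p53 had 14 of 30 higher and 6 lower, with a median of 0.14. Cdkn1a, the main p53 target in growth arrest, was at 43.8 and 52.8 RPKM in KO and 48.9 and 42.6 RPKM in DKO and was not called (edgeR adjusted p = 0.45), while Phlda3 rose 2.21-fold and Mdm2 1.72-fold.

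Transcripts of sterol and fatty acid synthesis were mostly lower in DKO. Of 31 genes tested 21 were lower and 4 higher (median -0.92). In subgroups formed after the values were seen, 17 of 23 sterol enzymes and uptake genes were lower and 2 higher. Of 7 fatty acid synthesis genes 4 were lower and 1 was higher. Dhcr7, the last enzyme of cholesterol synthesis, was at 14.2 and 13.4 RPKM in KO and 3.78 and 2.78 RPKM in DKO. Insig1, the sterol sensor partner, fell 2.75-fold, and Sqle, which oxidises squalene, 2.20-fold. Abca1, which exports cholesterol and is induced when sterols are plentiful, went the other way, from 0.932 and 0.784 RPKM to 3.31 and 3.90 RPKM, a 4.12-fold rise.

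In fatty acid synthesis, Acly, which makes cytosolic acetyl-CoA, was at 62.1 and 66.3 RPKM in KO and 13.1 and 13.1 RPKM in DKO, 5.0-fold lower. Fasn was at 109 and 115 RPKM in KO and 31.5 and 25.9 RPKM in DKO, 4.0-fold lower. Both, with Acaca and Srebf1, are on chromosome 11, where most genes were lower, and Ebp and Nsdhl of the sterol pathway are X-linked. Without the X-linked genes 19 members were lower. Scd1 and Scd2, the desaturases, were not called (edgeR adjusted p = 0.79 and 0.11). The sterol element TCACNCCAC, searched in the same windows, was not found at any of the 14 lower members with a window and occurs at 1.22% of all genes.

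Glycolytic and hypoxia-response genes were lower in 23 of 33 cases and higher in 4 (median -0.80). Ldha, which turns pyruvate into lactate, was at 219 and 216 RPKM in KO and 57.3 and 42.7 RPKM in DKO, 4.46-fold lower. Slc16a3, the lactate exporter, was at 60.6 and 79.9 RPKM in KO and 12.1 and 9.55 RPKM in DKO, 6.65-fold lower. Tpi1 fell 4.36-fold, Pfkp 2.99-fold, and Slc2a1, the main glucose transporter, 2.54-fold. Bnip3, a mitophagy receptor induced by hypoxia, was at 12.2 and 13.1 RPKM in KO and 0.905 and 0.892 RPKM in DKO, 14.3-fold lower. The fall was not seen in every glucose gene: Slc2a3 was at 489 and 470 RPKM in KO and 582 and 560 RPKM in DKO (edgeR adjusted p = 0.073), and Hk2 was at 44.2 and 46.0 RPKM in KO and 51.3 and 55.3 RPKM in DKO (edgeR adjusted p = 0.11). Vegfa and Eno2 rose 3.06-fold and 4.93-fold. Without DKO replicate 1 the number of members higher was 7.

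Ribosomal protein and respiratory chain genes were lower too, but their transcripts are short. Of 52 ribosomal protein genes 34 were lower and 3 higher (median -0.62), while genes of like length had a median of -0.44. With the length offset 10 were lower and 8 higher (median -0.12). Of 51 genes of oxidative phosphorylation 23 were lower and 8 higher (median -0.41), and with the offset 14 were lower and 11 higher (median 0.01). Without DKO replicate 1, 5 ribosomal genes were called higher, and without KO replicate 1, 5 respiratory genes were. Both groups moved with the length trend, whose part was not tested further. The stress, sterol and glycolysis groups, with median lengths of 2655, 3102 and 2631 bases, kept medians of 0.93, -1.05 and -0.60 with the offset. Ribosomal protein genes also have many near-identical copies, so single members such as Rpl12, at 30.3 and 31.8 RPKM in KO and 136 and 138 RPKM in DKO, are uncertain.

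Genes that write, erase or read H4K20 methylation changed modestly. Of 12 tested 7 were higher and 1 lower (median 0.48), against a median of 0.37 for genes of like length, and with the length offset 5 were higher and 3 lower. Rsbn1, a demethylase of H4K20, was at 4.08 and 3.70 RPKM in KO and 7.90 and 8.55 RPKM in DKO, 2.07-fold higher. Phf20, a Tudor domain reader of methyl-lysine, was at 4.88 and 4.89 RPKM in KO and 8.99 and 11 RPKM in DKO. Orc1, the reader of the dimethyl form at origins, was 1.46-fold lower, at 7.15 and 6.48 RPKM in KO and 4.63 and 4.91 RPKM in DKO. Setd8, which encodes the monomethyltransferase, was at 25.6 and 27.6 RPKM in KO and 22.5 and 26.9 RPKM in DKO (edgeR adjusted p = 0.36), and Trp53bp1, the gene of 53BP1, was at 6.61 and 6.02 RPKM in KO and 7.18 and 6.97 RPKM in DKO (edgeR adjusted p = 0.31). Without DKO replicate 2, 2 members were lower in place of 1.

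Other silencing systems were split. Of 36 genes of H3K9 heterochromatin and repeat silencing 12 were higher and 13 lower, and with the length offset 11 were higher and 17 lower. Morc1, which represses transposons in germ cells, was at 6.41 and 5.51 RPKM in KO and 0.608 and 0.574 RPKM in DKO, 10.3-fold lower. Atf7ip, the partner of the H3K9 methyltransferase SETDB1, fell 2.61-fold and Setdb1 1.50-fold, and Trim28, their common corepressor, was at 306 and 378 RPKM in KO and 215 and 205 RPKM in DKO. Sirt1, a deacetylase, rose 3.28-fold. The 2 methyltransferase genes Suv39h1 and Suv39h2, whose H3K9 mark recruits SUV420 enzymes to heterochromatin, were not called (edgeR adjusted p = 0.076 and 0.33). In the DNA methylation machinery 8 of 22 were higher and 9 lower, and with the length offset 7 were higher and 11 lower. Dnmt3l, cofactor of the de novo enzymes, was at 61.0 and 65.1 RPKM in KO and 28.7 and 25.1 RPKM in DKO, while Gadd45a rose 4.31-fold and the maintenance enzyme Dnmt1 was not called (edgeR adjusted p = 0.16).

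Polycomb genes were higher in 14 of 31 cases and lower in 8 (median 0.29), against a median of 0.14 for genes of like length. With the length offset 13 were higher and 11 lower (median 0.17). Phc1 was at 149 and 143 RPKM in KO and 53.9 and 49.7 RPKM in DKO, and Rnf2, the H2A ubiquitin ligase, at 18.7 and 15.9 RPKM in KO and 36.6 and 42.4 RPKM in DKO. The catalytic subunit gene Ezh2 was at 16.6 and 15.5 RPKM in KO and 18.4 and 18.2 RPKM in DKO (edgeR adjusted p = 0.24). Genes of genome architecture had 20 of 36 higher and 6 lower (median 0.38), and 15 higher with the length offset. Ctcf, the boundary factor, was at 35.1 and 33.4 RPKM in KO and 47.2 and 55.6 RPKM in DKO, 1.47-fold higher, and Smc4, a condensin subunit, rose 2.29-fold. Emd, the X-linked emerin gene of the nuclear envelope, fell 3.41-fold. Replication genes had 16 of 36 lower and 6 higher: Rfc5, a clamp loader subunit, was at 32.0 and 31.7 RPKM in KO and 13.6 and 13.8 RPKM in DKO, whereas the helicase genes Mcm2, Mcm4, Mcm5 and Mcm7 were not called (edgeR adjusted p = 0.069, 0.81, 0.60 and 0.74).

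Markers of other cell types were examined as summed levels. In bulk RNA more cells of a type and more RNA per cell cannot be told apart. The 10 endoderm markers summed to 6.37 and 5.86 RPKM in KO and 34.5 and 24.4 RPKM in DKO, none of them without reads in either line. Most of the rise of this sum lay in Gata4, on chromosome 14, where most genes were higher in DKO. Of 35 endoderm factors and products 17 passed the filter on low values, with 11 higher and 2 lower (median 1.05). Some, such as Gata6, passed only through the line where they were high, so the count supports no direction. Gata4 was at 1.67 and 1.99 RPKM in KO and 20.2 and 15.0 RPKM in DKO, 9.35-fold higher, and Gata6 at 0.167 and 0.345 RPKM in KO and 3.72 and 2.43 RPKM in DKO. Sox17 and Sox7 rose 3.08-fold and 2.85-fold. Against these, Cited1, an X-linked transcriptional coactivator, fell 18.3-fold, from 10.7 and 11.2 RPKM to 0.815 and 0.423 RPKM, and Hnf4a, an endoderm nuclear receptor under the filter, had 184 and 143 reads in KO and 0 and 6 reads in DKO. Apoe, an apolipoprotein, was at 472 and 557 RPKM in KO and 3889 and 2843 RPKM in DKO, 6.37-fold higher, from 782 and 766 RPKM in WT. The neural progenitor markers summed to 17.8 and 21.3 RPKM in KO and 70.4 and 59.7 RPKM in DKO. Sox1 alone made up 2.40 and 2.65 RPKM of the sum in KO and 64.4 and 54.4 RPKM in DKO, so the rise of the sum lay in this gene. Of the 4 such markers tested, Sox1 alone was called higher: Pax6, at 0.508 and 0.446 RPKM in KO, was at 0.129 and 0.228 RPKM in DKO, and Nes, the intermediate filament nestin, fell 4.26-fold. The streak and mesoderm markers summed to 5.90 and 5.90 RPKM in KO and 6.77 and 5.54 RPKM in DKO, and the trophoblast markers to 5.51 and 6.54 RPKM in KO and 4.99 and 4.25 RPKM in DKO. The part of other cell types in the results was not tested.

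Of 39 Hox genes 9 passed the filter, with 6 higher and 2 lower; some passed only through the line where they were high, so the count supports no direction. The risers were in the A and B clusters, such as Hoxb9 at 1.27 and 0.923 RPKM in KO and 6.38 and 5.24 RPKM in DKO. The 2 lower genes were Hoxb13 and Hoxc12, and without KO replicate 1 only 1 was called lower. Trophoblast genes were lower in 13 of 20 cases and higher in 4 (median -1.13). Some, such as H19, passed the filter only through KO, so this count supports no direction either. Cdh3, P-cadherin, was at 12.4 and 11 RPKM in KO and 1.46 and 1.06 RPKM in DKO, and Tfap2c was at 32.2 and 30.8 RPKM in KO and 7.74 and 5.91 RPKM in DKO. Krt8 and Krt18, simple epithelial keratins, rose 6.53-fold and 1.67-fold.

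Imprinted genes, which are transcribed from the maternal or the paternal copy only, moved in both directions. Of 16 maternally expressed genes 7 were higher and 7 lower, and of 21 paternally expressed genes 5 were higher and 12 lower. Some, such as H19 and Dlk1, passed the filter on low values only through KO, so these counts support no direction. In the Dlk1 to Dio3 domain of chromosome 12 the maternally expressed Meg3 was at 8.65 and 7.16 RPKM in KO and 0.0653 and 0.0487 RPKM in DKO, 142-fold lower, and Mirg, with no reads in DKO, was at least 71.0-fold lower (against 3 counts per library). Dlk1, expressed from the paternal copy of the same domain, was at 1.73 and 1.67 RPKM in KO and 0.345 and 0.339 RPKM in DKO. Transcripts of this domain overlap or neighbour each other and the strand of counting is not given, so their reads may not be separable. At the Igf2 and H19 locus the 2 genes moved in opposite directions: H19 was at 9.5 and 11.7 RPKM in KO and 0.276 and 0.504 RPKM in DKO, and Igf2, the paternally expressed growth factor, was at 1.38 and 1.98 RPKM in KO and 11.7 and 13.5 RPKM in DKO. Grb10, an adaptor that restrains growth signals, was at 11.4 and 10.6 RPKM in KO and 94.5 and 115 RPKM in DKO, 9.33-fold higher on chromosome 11, where most genes were lower. Peg12 and Ndn, paternally expressed on chromosome 7, fell 13.8-fold and 2.81-fold, whereas Mkrn3, also paternally expressed there, rose 1.96-fold. Dio3 was at 0.985 and 1.11 RPKM in KO and 1.70 and 0.960 RPKM in DKO (edgeR adjusted p = 0.46).

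Interferon and antigen presentation genes had 11 of 24 lower and 6 higher. Ifitm3, which blocks virus entry, was at 190 and 188 RPKM in KO and 25.8 and 21.3 RPKM in DKO, 8.22-fold lower, and Ifitm1 fell 24.1-fold. Oas1a, a sensor of double-stranded RNA, was at 8.47 and 8.69 RPKM in KO and 0.0637 and 0.0655 RPKM in DKO, though near-identical Oas1 copies make the single gene uncertain. B2m, the light chain of class I molecules, was at 4.86 and 4.81 RPKM in KO and 45.2 and 35.8 RPKM in DKO, 8.16-fold higher. Without KO replicate 1 only 3 members were called higher. In adhesion and matrix genes both directions were common (13 of 28 higher and 10 lower, and 16 of 29 higher and 9 lower). Some matrix genes passed the filter on low values only through 1 line, Col5a1 and Lama3 through KO and Fbn1 through DKO. The matrix count therefore supports no direction. Fn1, fibronectin, was at 46.5 and 38.5 RPKM in KO and 161 and 147 RPKM in DKO, and its receptor subunit Itga5 at 7.79 and 7.31 RPKM in KO and 34.8 and 32.5 RPKM in DKO. Cdh1, E-cadherin, was at 85.4 and 80.4 RPKM in KO and 46.9 and 46.1 RPKM in DKO, 1.82-fold lower.

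Whole chromosomes differed between the mutant lines. Of 433 X-linked genes tested 299 were lower and 41 higher in DKO, with a median log2 fold change of -0.93, a level of 0.52 of KO. Chromosome 1 had 424 of 647 genes higher (median 0.72, 1.65 times KO) and chromosome 14 had 261 of 433 higher (median 0.60, 1.51 times KO). On chromosome 11 593 of 1040 genes were lower (median -0.56, 0.68 of KO). Chromosome 18 had a smaller shift of 0.27, and the medians of the other chromosomes lay between -0.10 and 0.14.

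The libraries show in which line the shift lay, relative to the mean of the 6 ES libraries on the log2(RPKM + 1) scale. On the X chromosome the median deviation was 0.50 and 0.40 in KO, -0.24 and -0.26 in DKO and -0.24 and -0.25 in WT, so KO stood apart. On chromosome 1 it was -0.34 and -0.38 in KO, 0.23 and 0.22 in DKO and 0.14 and 0.11 in WT, and on chromosome 14 it was -0.33 and -0.35 in KO, 0.19 and 0.17 in DKO and 0.16 and 0.13 in WT. For chromosome 11 it was DKO that stood apart, at -0.20 and -0.32 against 0.16 and 0.16 in KO and 0.08 and 0.09 in WT. When the genes of each chromosome were ordered and cut into 8 consecutive blocks, all 8 block medians of chromosomes 1, 11, 14 and X had the sign of the whole. The number of chromosome copies was not measured here, and its part in these shifts was not tested. The Y-linked genes Ddx3y, Eif2s3y and Uty had no reads in KO or DKO and were at 6.14 and 6.10, 10.1 and 9.85, and 1.74 and 1.88 RPKM in WT, so their absence is shared by both mutant lines. Without chromosomes 1, 11, 14 and X 6162 genes were called. On the other autosomes the share of tested genes called ran from 60.3% (chromosome 13) to 72.4% (chromosome 18), against 67.3% of all genes. The difference was thus not confined to chromosomes 1, 11, 14 and X.

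**Figure D5:**
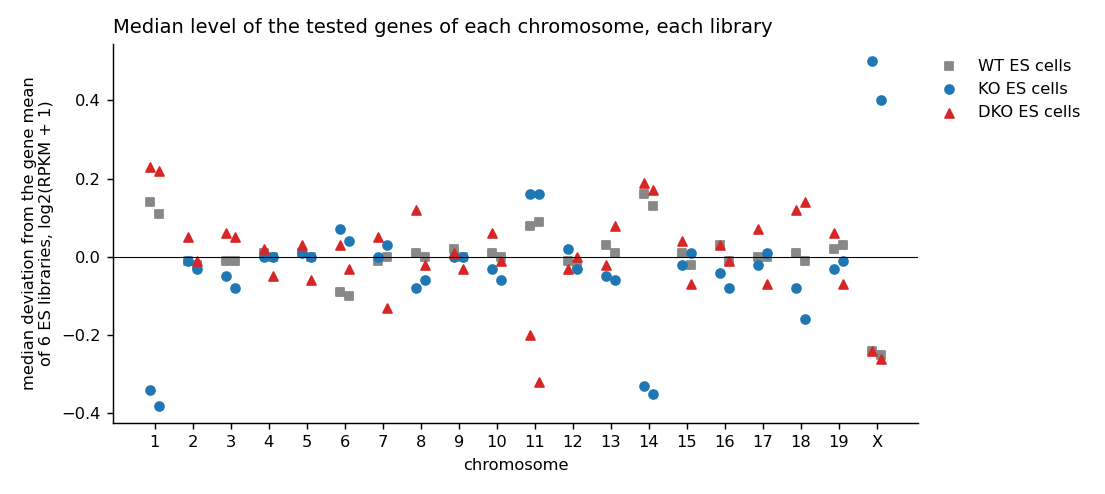
Median deviation of the tested genes of each chromosome (x axis) from their mean over the 6 ES libraries (y axis, log2(RPKM + 1)), 1 point per library. KO libraries stand apart on chromosomes 1, 14 and X, and DKO libraries on chromosome 11.

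The differentiated libraries of the same lines, 1 each for KO and DKO at days 8 and 12, were not used in the ES test. Of the genes at least 2-fold different in ES cells, 77.1% had the same direction at day 8 and 72.8% at day 12, against 67.6% and 64.2% of all genes tested. The stress response list kept its direction at 43 of 51 genes at day 8 and 44 at day 12, the sterol list at 27 and 28 of 31, and the germline list at 23 of 25 on both days. Immediate early genes did so at 7 of 19 at day 8 and 12 of 19 at day 12. The X chromosome median difference was -0.70 and -0.36 at days 8 and 12, chromosome 1 was at 0.37 and 0.51, chromosome 14 at 0.39 and 0.51 and chromosome 11 at -0.48 and -0.44, on the log2(RPKM + 1) scale. With 1 library per line and day these values have no replicate check. With days 8 and 12 taken as replicates, edgeR called 8.73% of all genes between DKO and KO differentiated cells, and the difference between the ES and the differentiated effect was called for 6.29%.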

How the data were processed

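Alignment used Bowtie2 and the build mm9, per the submitters' processing notes. The Bowtie2 version, the counting program and its strand setting are not given in the sources used here. Tables deposited by the authors hold whole-number read counts for 29257 transcript models and the RPKM the authors made from them with a library total larger than the reads in genes. The longest model stood for each of 22878 symbols. A RefSeq table gave chromosome and gene order only (99.7% matched); promoter stretches come from RefSeq GRCm38.p6.

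edgeR 4.0.16 (R 4.3.3; quasi-likelihood test, TMM scaling, Benjamini-Hochberg adjustment over 12044 genes) was fitted to the 6 ES libraries, on genes with at least 1 RPKM in 2 libraries, with 3 residual degrees of freedom. Folds are 2 to the power of the fitted log2 fold change, and an SE is the fold change over the square root of F. Where a group had no reads, 3 counts per library were the floor, which covers counting error only. In simulated counts for this comparison (12044 genes), 95% of 2-fold and 100% of 4-fold changes were called, as were 0.146% of unchanged genes. The simulation changed only a small share of genes and drew counts with the spread fitted here. It held no chromosome shifts, no length trend and no wider spread in DKO, so these rates may not hold for the real counts.

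The members, the 34 gene lists and the tests were chosen with earlier results of these data known. Genes were named if targeted, if among the 10 that rose most or the 10 that fell most in mean log2(RPKM + 1) among called genes (5 RPKM or more in the higher group, no overlap, models of 300 bases or more), or if among up to 6 members per list by adjusted p. Other genes, and the subgroups of lists by role, were chosen after their values were seen. limma 3.58.1 and DESeq2 1.42.0 were alternatives. The length offset, added after seeing the data, removed each library's trend with log10 transcript length (lowess, span 0.3) inside edgeR. Python 3.11.15, pandas 2.3.3, numpy 2.4.6 and matplotlib 3.10.9 were used. Values of some list members are not reported here.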

Additional observations from a re-analysis of the deposited data

Results flagged for a closer look

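For 8 of the 20 genes with the largest differences, the DKO minus KO log2 fold change in ES cells differed from that in differentiated cells by a test of the difference itself (edgeR interaction term with days 8 and 12 as replicates of the differentiated state, adjusted p under 0.05). Over all 12044 genes 6.29% passed that test. The 20 genes were picked for a large difference in these same ES libraries, which favours passing. Their share therefore cannot be weighed against that of all genes. The difference of the log2 fold changes was 7.64 for Ripply3 (SE 0.73, edgeR adjusted p = 0.0033): in differentiated cells its log2 fold change was 0.06, with 0.865 RPKM in KO and 0.656 RPKM in DKO at day 12. For Dusp4 the difference was 4.07, for Mbnl2 3.61, for Bhlhe41 3.34 and for Cpe 3.17. Among the falls it was -4.96 for Mycn (SE 0.30, edgeR adjusted p = 2.0e-04), -4.80 for Notum, a secreted enzyme that inactivates Wnt proteins, and -3.41 for Calcoco2. Mycn was at 69.6 RPKM in KO and 68.3 RPKM in DKO at day 8, and at 61.4 and 99.7 RPKM at day 12. Its log2 fold change in differentiated cells was 0.38 and was not called (edgeR adjusted p = 0.26). Bhlhe41 and Calcoco2 kept their direction after differentiation, with log2 fold changes of 2.68 and -2.05.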

How the results depend on the processing

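Of 8110 genes called and 3697 called at least 2-fold, each count stayed within 1.5 times under all alternatives but 1. The exceptions were the fit of all 12 libraries, with 4780 called, and the filter at 5 RPKM, with 2147 at least 2-fold, which tests fewer genes; for the former the cause was not tested. The length offset called 8070, of which 7128 were shared with the 8110. Leaving out each library gave 6862 to 8498 called and 3538 to 3927 at least 2-fold. With upper-quartile scaling 8084 were called. Replicate numbers are shared by the groups, but same-numbered KO and DKO libraries did not deviate together (correlation -0.05). With 2 libraries per group this cannot exclude a shared culture or batch, which the labels do not give. With the replicate block 7864 genes were called and 3682 at least 2-fold. Of 205 named genes 19 lost the call with all 12 libraries (Dppa5a, Lefty2, Fst and Igf2 among them), and none reversed under any alternative. The larger direction of a list turned in 1 of 34 lists, the H3K9 list with all 12 libraries. Over 18 alternatives the X chromosome median ran from -1.05 to -0.66, that of chromosome 1 from 0.50 to 0.76, of chromosome 11 from -0.63 to -0.44 and of chromosome 14 from 0.49 to 0.64. The filter also left out genes that differ: without it 9814 genes were called and 5229 at least 2-fold.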
